A study of Mus musculus with 6 samples.

Results

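The genes described here are the clustered histone genes of the mouse, taken from the deposited count table as every symbol that begins with Hist1 to Hist4 followed by H1, H2a, H2b, H3 or H4. The pattern matched 65 of the 17691 genes in the table. Of these, 35 had 10 or more counts in 2 or more of the 6 libraries, and these 35 are called members below: 5 of 6 H1 genes, 9 of 18 H2A genes, 9 of 17 H2B genes, 8 of 11 H3 genes and 4 of 13 H4 genes. The cells were erythroblasts of C57BL/6J mouse fetal liver that did not carry TER119, a surface protein of later red cell precursors, and they grew in medium with erythropoietin (Epo). Untreated cultures gave 3 libraries, and 3 more came from cultures given 1 ug/ml of carbon dots (CDs), fluorescent carbon nanoparticles made here from the plant Codonopsis pilosula, for 30 h. The same cells, medium and Epo were shared by both groups, and the labels give no age of the embryos, no pooling of livers and no separate culture, litter or day for a replicate number, so the p-values speak of how these libraries vary, in part perhaps technically. The question put to the members is how far their level in RNA selected for poly(A) tails differed between CDs and untreated cells, by class and within each replicate number.

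Histones H2A, H2B, H3 and H4 form the core of the nucleosome, and H1 binds the linker DNA between nucleosomes. A cell that copies its DNA needs new histones at the same time, and the genes that supply them, called replication-dependent, are read mainly in S phase. Their messenger RNAs are unusual in that most do not end in a poly(A) tail: the transcript is cut just after a short hairpin, which is bound by the protein SLBP. Dividing erythroblasts make these RNAs in quantity, and in differentiating cells some histone genes are also read through the hairpin to a poly(A) site further on. The libraries were made from RNA caught on oligo(dT) beads, so the values below are of histone RNA in the selected fraction and not of all histone RNA. Whether the histone RNA in that fraction ended in a poly(A) tail was not tested.

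The hairpin was read from the GENCODE M21 transcripts of build GRCm38 as 16 bases that begin with GG, with 6-base arms that pair perfectly around a loop of TTT and any base, on the sense strand. It was present in a transcript of 23 of the 35 members (65.7%), in 43 of all 65 matched genes (66.2%) and in 79 of 55341 GENCODE genes (0.143%). The other 12 members held no match to these letters in the transcripts searched. Sequences of the members that carry most of the results are shown with 5 bases on each side where the transcript reaches that far, and the capitals mark the hairpin:

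Hist1h2ap: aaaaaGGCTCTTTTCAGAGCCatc
Hist1h2ao: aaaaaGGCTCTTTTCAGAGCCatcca
Hist1h1c: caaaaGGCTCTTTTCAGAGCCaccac
Hist3h2a: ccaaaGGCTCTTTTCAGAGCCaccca
Hist1h3c: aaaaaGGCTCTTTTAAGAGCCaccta
Hist1h4m: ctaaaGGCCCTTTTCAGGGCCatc
Hist1h4i: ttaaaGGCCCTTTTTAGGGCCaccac

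The form in Hist1h2ap was shared by 17 members of the H1, H2A, H2B and H3 classes. A second form with a different last base of the loop was found in 2 members, Hist1h2bk and Hist1h3c. All 4 H4 members had another stem, and Hist1h4i alone among the members had its own loop within that stem. The reads of these 23 genes in the present libraries come from RNA that was retained on oligo(dT) beads.

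Gene models differ in whether they stop at the hairpin. The RefSeq gene of build GRCm38.p6 ended 4 to 8 bases after the hairpin in 22 of the 23 members, and the exception was Hist1h2be, whose model ran on for 1861 bases. The GENCODE transcript went on for more than 100 bases beyond the hairpin in 12 members, and 4 of these had the poly(A) signal AATAAA in their last 50 bases: Hist1h1c, Hist1h2ae, Hist3h2a and Hist3h2ba. For Hist1h1c the transcript continued for 840 bases and for Hist3h2a for 1643 bases. Dividing the deposited count by the deposited FPKM (fragments scaled to gene length and library total) and by the library total returns the length the authors used. For 31 of the 35 members that length was 84.4% to 101% of the RefSeq span. The other 4, Hist1h2bc, Hist1h2be, Hist1h2bq and Hist1h2br, have RefSeq spans of 3788 bases or more. Reads from a poly(A) tail end far beyond the hairpin of a gene such as Hist1h1c or Hist3h2a would then lie outside the counted model, and they were not analysed here.

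**Figure D1:**
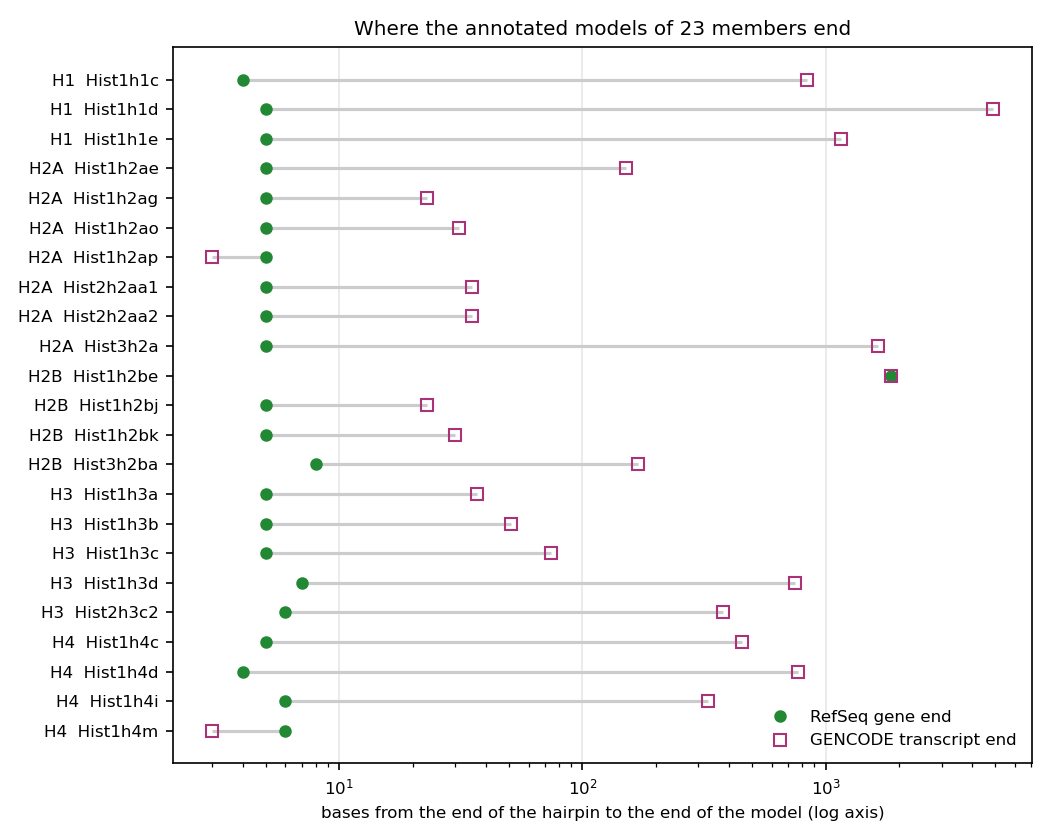
Distance in bases, on a log axis, from the last base of the hairpin to the end of the RefSeq gene (filled circles) and of the longest GENCODE transcript with the hairpin (open squares), for the 23 members with a hairpin. RefSeq ends lie within 8 bases in 22 members, while 12 GENCODE ends lie beyond 100 bases.

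The members lie in 3 clusters. On chromosome 13 the Hist1 cluster held 27 members of 53 matched genes, on chromosome 3 the Hist2 cluster held 6 of 9, on chromosome 11 the Hist3 cluster held 2 of 2, and the single Hist4 gene on chromosome 6 was no member. RefSeq promoter windows of 300 bases, 250 before and 50 after the start, were at hand for 32 members. The motif CCAAT, searched on both strands, was present in 30 of these windows (93.8%) and in 41.1% of the 27025 windows of all genes. The H4 members were the exception, with CCAAT in 2 of 4 windows. TATAAA was present in 46.9% of member windows, from 28.6% in H2B to 80% in H1, and in 15.7% of all windows, and ATTTGCAT, the octamer known from H2B promoters, in 15.6% and 1.97%. Within the classes the octamer was found in 3 of 7 H2B and 2 of 9 H2A windows and in no H1, H3 or H4 window. A match is a description of these letters and not a measured site.

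The 150 bases before the start are shown for the members that stand out by level or by their values with CDs, written 5′ to 3′ on the strand of the gene, with the CCAAT motif, the TATAAA motif or a reverse complement of either in capitals. In GRCm38.p6 the windows of Hist1h2ap (chr13:21833476-21833625, minus strand), Hist1h2ao (chr13:21810217-21810366, plus strand), Hist1h2bq (chr13:21810200-21810349, minus strand), Hist1h1c (chr13:23738657-23738806, plus strand), Hist1h1a (chr13:23763518-23763667, plus strand) and Hist1h4i (chr13:22041363-22041512, minus strand) read:

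Hist1h2ap: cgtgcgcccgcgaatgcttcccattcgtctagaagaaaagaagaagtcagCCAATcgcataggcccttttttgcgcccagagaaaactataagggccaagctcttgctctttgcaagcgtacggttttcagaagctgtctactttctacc
Hist1h2ao: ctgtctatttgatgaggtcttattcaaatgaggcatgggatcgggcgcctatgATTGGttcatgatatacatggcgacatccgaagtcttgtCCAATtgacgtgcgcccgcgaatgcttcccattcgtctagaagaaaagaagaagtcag
Hist1h2bq: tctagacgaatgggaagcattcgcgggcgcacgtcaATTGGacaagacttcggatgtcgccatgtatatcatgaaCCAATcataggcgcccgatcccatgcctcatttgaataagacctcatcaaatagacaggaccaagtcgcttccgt
Hist1h1c: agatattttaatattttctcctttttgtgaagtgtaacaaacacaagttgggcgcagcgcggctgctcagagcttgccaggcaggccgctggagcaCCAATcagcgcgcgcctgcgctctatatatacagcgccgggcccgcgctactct
Hist1h1a: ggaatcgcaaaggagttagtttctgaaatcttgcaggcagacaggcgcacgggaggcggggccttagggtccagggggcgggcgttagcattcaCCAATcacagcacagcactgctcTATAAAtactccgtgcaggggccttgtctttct
Hist1h4i: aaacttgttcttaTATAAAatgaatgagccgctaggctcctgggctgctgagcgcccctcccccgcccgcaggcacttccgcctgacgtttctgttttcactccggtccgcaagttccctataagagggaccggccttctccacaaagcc

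Hist1h2ap and Hist1h2ao are near-copies that lie in opposite directions, each head to head with an H2B gene. The last 50 bases before the Hist1h2ao start are identical to bases -150 to -101 of Hist1h2ap, so the RefSeq start of Hist1h2ap lies 100 bases further into the shared stretch. The windows of the H2B partners, Hist1h2bq beside Hist1h2ao and Hist1h2br beside Hist1h2ap, are identical in all 150 bases. In both H1 genes shown, Hist1h1c and Hist1h1a, a CCAAT box stands on the sense strand, with its first base at -54 and -56. Hist1h4i holds no CCAAT in these bases.

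In the deposited counts most of the histone reads were given to a single H2A gene, Hist1h2ap, though most of its sequence is shared with Hist1h2ao. In the untreated libraries numbered 1, 2 and 3, Hist1h2ap (gene 319171, chr13:21833024-21833475, minus strand) had 447, 330 and 252 CPM, and in the CDs libraries 354, 437 and 191 CPM. CPM is a gene's counts scaled to 1000000 counts of library total, after TMM adjusted the totals so that the bulk of genes balances between libraries. The groups overlapped across nearly their whole range, with the lowest value in number 3 of both. Hist1h2ao (gene 665433, chr13:21810367-21810918, plus strand), which encodes H2A as well, followed the same order of libraries, with 54.6, 40.1 and 33.8 CPM in untreated and 45.4, 49.0 and 25.9 CPM in CDs libraries. Per length, by the deposited FPKM, Hist1h2ap was 9.18 to 11.1 times as high as Hist1h2ao, depending on the library.

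These 2 genes cannot be counted apart with confidence. Of the 50-base windows of their GENCODE transcripts, the length of 1 read, 403 were identical between them, which is 93.1% of the windows of Hist1h2ap and 93.5% of those of Hist1h2ao, and the authors' estimate divided such reads between genes. Together they held 71.9% to 87.9% of the members' counts, and all members together held 0.0315% to 0.0559% of a library's counts. Their sum was 501, 370 and 286 CPM in untreated libraries and 399, 486 and 217 CPM in CDs libraries, or 386 ± 109 against 367 ± 137 CPM (SD, n = 3 each). Within the numbers the log2 ratio of CDs to untreated was -0.33, 0.39 and -0.40, so number 2 stood on the other side of 0 from the other two.

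Compared per length, by the deposited FPKM over the 6 libraries, the levels fell into clear steps at the top and ran together below. The step between Hist1h2ap and Hist1h2ao rests on the authors' division of reads that fit both. Hist1h2ap had a mean of 782 ± 221 FPKM (SD over all 6 libraries), Hist1h2ao 78.1 ± 18.2, Hist1h4i 37.8 ± 6.49 and Hist1h1c 18.8 ± 4.97, and the lowest library of each of the first 3 lay above the highest library of the next. Hist1h1c, Hist3h2a (15.7 ± 7.71 FPKM) and Hist1h2bc (13.9 ± 4.67 FPKM) overlapped each other. These 6 members had at least 8.79 FPKM in every library. The other 29 reached at most 7.73 FPKM in any library, with means from 0.282 to 4.77, and neighbours in that order overlapped. By counts, the H2A class made up 78.6% to 89.7% of the members' reads, H2B 3.86% to 9.41%, H1 1.93% to 6.34%, H4 2.69% to 4.06% and H3 0.873% to 1.87%.

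**Figure D2:**
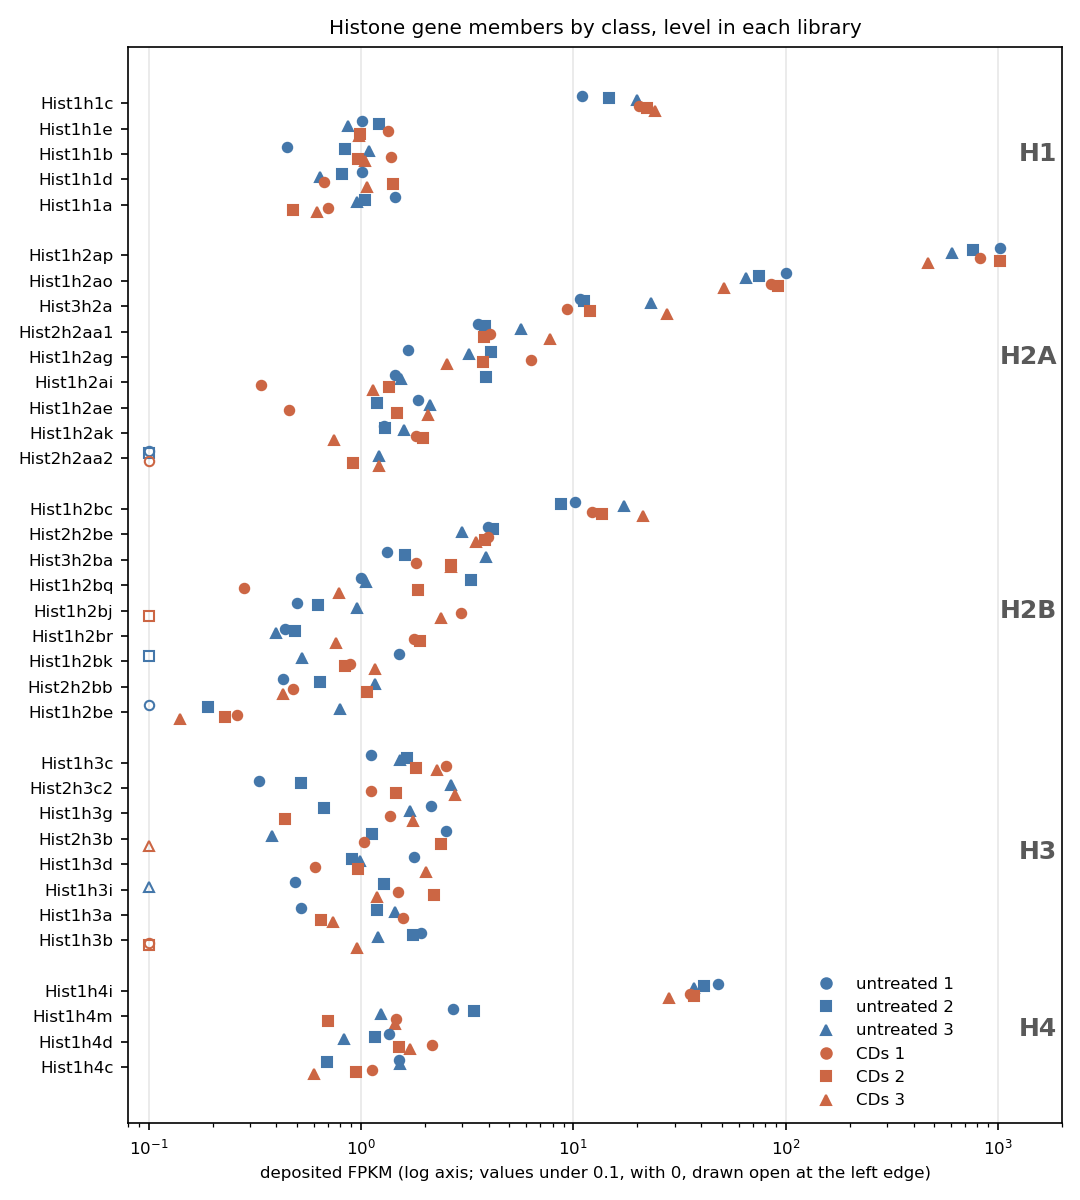
Deposited FPKM on a log axis for each of the 35 members, grouped by class and ordered by mean level, with untreated libraries in blue, CDs libraries in orange and one marker shape per number. Values under 0.1, with those at 0, are drawn as open markers at the left edge, and Hist1h2ap stands above every other member in each library.

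There were 11 pairs of matched genes that point away from each other with at most 500 bases between their starts, 9 with a member and 3 with 2 members, and their levels ranged from close to very unequal. Hist1h2ap and Hist1h2br are separated by 267 bases and had mean levels of 782 and 0.958 FPKM. Hist1h2ao and Hist1h2bq are separated by 167 bases and had 78.1 and 1.38 FPKM. In both pairs the single levels are uncertain, since reads were divided between near-copies. The FPKM of Hist1h2br and Hist1h2bq also did not follow their counts across libraries. In the pair of Hist1h2bc with Hist1h2ac the H2B gene was the higher, with 13.9 against 0.508 FPKM, and Hist1h2ac was no member. Other pairs were nearer each other, such as the members Hist1h2ag and Hist1h2bj at 3.61 and 1.24 FPKM, or Hist1h2ae with Hist1h2bg at 1.53 and 0.658 FPKM.

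No histone gene passed the test between CDs and untreated cells. With edgeR's quasi-likelihood test over 12283 genes, 0 of the 27 members that passed the filter on low counts had a Benjamini-Hochberg adjusted p under 0.05, the smallest being 0.994, and 0% of all genes tested did. At an unadjusted p under 0.05 the count was 1 member of 27, with 1.03% of all genes. DESeq2 and limma-voom without a replicate term also called 0 members. The median log2 fold change of the 27 was 0.08 and that of all genes 0.01, with 15 members above 0 and 12 below, where 48.1% of all genes lay below. The 8 members not tested had 39 to 69 counts in all 6 libraries together.

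Libraries that share a number deviated together from their group means, clearly in numbers 1 and 3 and weakly in number 2. Untreated 2 deviated more like CDs 1 than like CDs 2, so the pairing is uncertain there. Each comparison was also fitted with the number as a block. That fit called 0 of 27 members at an adjusted p under 0.05, with 0.0407% of all genes called, and the smallest adjusted p of a member in edgeR was 0.0997, for Hist1h1c. At an unadjusted p under 0.05 it held 5 members of 27, 2 higher and 3 lower with CDs, where 29.9% of all genes passed that limit. DESeq2 with the block called 0 of the 8 members it gave an adjusted p, beside 11.4% of its genes, and limma-voom with the block called 0. The 5 members of 27 at the unadjusted limit were a smaller share than that of all genes.

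**Figure D3:**
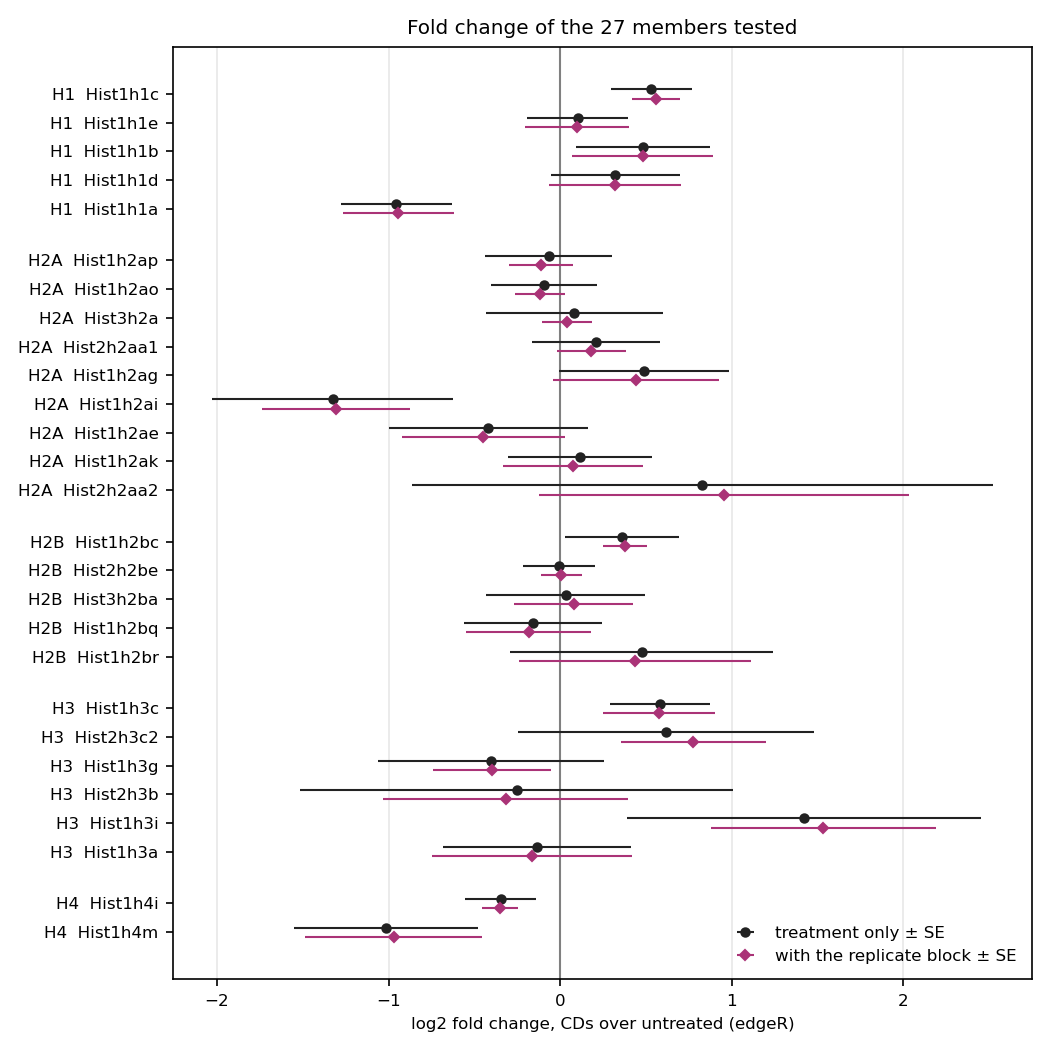
Log2 fold change of CDs over untreated, with its standard error, for the 27 members tested, from edgeR with treatment only (black circles) and with the replicate number as a block (purple diamonds). The block narrows the error of the abundant members Hist1h1c, Hist1h2bc and Hist1h4i, and no member had an adjusted p under 0.05 in either fit.

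The H1 sum was higher with CDs, and 1 gene carried the difference. Hist1h1c (chr13:23738807-23739531, plus strand) encodes H1.2, a linker histone that many tissues express, and it had 7.98, 10.6 and 13.7 CPM in untreated libraries. In CDs libraries it had 14.5, 15.8 and 16.4 CPM, all above the untreated ones. The means were 10.8 ± 2.88 and 15.6 ± 1.01 CPM (SD, n = 3 each), and the log2 fold change was 0.53 ± 0.23 (SE), with an edgeR adjusted p of 0.994. With the block it was 0.56 ± 0.14 (edgeR adjusted p 0.0997, and 0.0886 to 1.00 over the alternatives), and the log2 ratios within numbers 1, 2 and 3 were 0.86, 0.57 and 0.26. The difference between the groups was thus widest in number 1, where the untreated library was lowest.

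The 4 other H1 members were far scarcer. Hist1h1a, which encodes H1.1, is a gene with no 50-base window shared with another gene, and it had 1.08, 0.767 and 0.684 CPM in untreated libraries. The CDs libraries had 0.515, 0.352 and 0.434 CPM, all below the untreated ones. It was the 1 member at an unadjusted p under 0.05 without the block, with a log2 fold change of -0.96 ± 0.32 (SE), on 75 counts in all 6 libraries together. Hist1h1e (H1.4) had 0.792, 0.939 and 0.649 CPM in untreated and 1.04, 0.763 and 0.719 CPM in CDs libraries. Hist1h1b (H1.5) had a log2 fold change of 0.48 ± 0.39 and Hist1h1d (H1.3) of 0.32 ± 0.37, and neither separated the groups. The summed H1 level was 11.0, 13.6 and 16.4 CPM untreated against 17.6, 18.8 and 19.1 CPM with CDs, a log2 ratio of means of 0.44, and 0.024 without Hist1h1c.

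Among all 27 members tested, Hist1h1c and Hist1h3c were the 2 whose CDs libraries all lay above the untreated ones, where 2.39% of all genes did. Hist1h1a and Hist1h2ai were the 2 whose CDs libraries all lay below, where 2.34% of all genes did. Both are larger shares than among all genes, on 2 genes each. Within the CDs group neither Hist1h1a nor Hist1h2ai had 10 counts in 2 libraries. Both are thus members only through the untreated group, where they were higher. The larger share below is therefore no result about the members. Reads of Hist1h3c can be given to other H3 genes as well. In all 3 numbers the CDs library was the higher for 5 members, Hist1h1c, Hist1h2bc, Hist1h3c, Hist2h3c2 and Hist1h3i, with 30.2% of all genes. It was the lower in all 3 for 4 members, Hist1h1a, Hist1h2ai, Hist1h3g and Hist1h4i, with 26.2% of all genes. Of the 5 higher ones, Hist2h3c2 and Hist1h3i did not have 10 counts in 2 libraries within the untreated group. They are members only through the CDs group, where they were higher. Members that differed one way in every number were a smaller share than among all genes, in both directions. Both shares count genes that are members only through the group where they were higher, so they are no result about the members.

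Beyond Hist1h2ap and Hist1h2ao, 7 H2A members were measured. Hist3h2a (chr11:58954685-58955192, plus strand) is the H2A gene of the small Hist3 cluster, and it had 5.34, 5.55 and 11.0 CPM in untreated and 4.56, 5.83 and 12.8 CPM in CDs libraries. It was highest in number 3 of both groups, the reverse of Hist1h2ap. All 459 windows of 50 bases within its RefSeq span also occur in a GENCODE transcript of Trim17, a gene on the same strand that overlaps it, so reads from these bases fit both genes. No strand-marking step appears in the library protocol, and genes that overlap on opposite strands cannot be told apart either. Its log2 fold change was 0.08 ± 0.52 (SE), and 0.04 ± 0.14 with the block.

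Hist2h2aa1 and Hist2h2aa2 are copies on chromosome 3, and every 50-base window of both occurs in another GENCODE gene's transcripts as well. The partners that share every window include models with Gm symbols, and whether the authors' gene set held these models is not known. Hist2h2aa2 was listed at 0 in 3 libraries, a value of the authors' division of shared reads that does not show absence, since the same reads could have been given to its copy. The summed level of both was 1.95, 2.08 and 3.64 CPM in untreated and 2.18, 2.56 and 4.62 CPM in CDs libraries, highest in number 3 of each group. Hist1h2ai, with 90.1% of its windows shared, had 0.627, 1.68 and 0.641 CPM untreated and 0.143, 0.574 and 0.461 CPM with CDs. Its log2 fold change was -1.33 ± 0.70 (SE), and its 6 libraries held 81.5 counts in all. Hist1h2ag had a log2 fold change of 0.49 ± 0.50, with ratios within numbers of 1.85, -0.11 and -0.35. The summed H2A level without Hist1h2ap and Hist1h2ao was 10.4, 12.5 and 18.6 CPM untreated and 10.9, 12.5 and 20.3 CPM with CDs.

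The H2B class was spread over several genes. Hist1h2bc (chr13:23684199-23692480, plus strand) had 7.42, 6.34 and 11.8 CPM in untreated and 8.76, 9.71 and 14.5 CPM in CDs libraries. The groups overlapped, while within each number the CDs library was the higher. Its log2 fold change was 0.36 ± 0.33 (SE), and 0.38 ± 0.13 with the block (edgeR adjusted p 0.130, and 0.130 to 1.00 over the alternatives). Hist2h2be (chr3:96221072-96223738, plus strand) has a long model with AATAAA in the last 50 bases of its GENCODE transcript and shares no window with another gene. It had 11.1, 11.5 and 7.87 CPM in untreated and 10.9, 10.4 and 8.96 CPM in CDs libraries, a log2 fold change of -0.01 ± 0.21. These 2 genes were highest and lowest, respectively, in number 3 of both groups.

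The scarce H2B genes gave no stable single values. Hist1h2bq and Hist1h2br share 1912 of the 1966 windows of Hist1h2bq, and their deposited counts and FPKM did not keep 1 ratio across libraries, with a spread of 0.84 and 0.95 on the log2 scale against a median of 0.00866 over the genes compared. Their summed level was 1.61, 2.51 and 1.94 CPM untreated and 1.87, 2.64 and 1.95 CPM with CDs, and the numbers stood in the same order in both groups. Hist3h2ba had a log2 fold change of 0.03 ± 0.46. Hist1h2bj was not tested, and CDs 2 had 0.00101 CPM where the other libraries had 0.208 CPM or more. The summed H2B level was 22.0, 21.8 and 25.2 CPM untreated and 24.5, 25.4 and 28.4 CPM with CDs, with log2 ratios within numbers of 0.16, 0.22 and 0.17.

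H3 was the class with the fewest reads. Hist1h3c had 0.522, 0.762 and 0.675 CPM in untreated and 1.16, 0.827 and 0.990 CPM in CDs libraries, with no overlap, and a log2 fold change of 0.58 ± 0.29 (SE) on 96 counts in all. Of the 431 windows within its RefSeq span 273 are shared, 243 of them with Hist1h3b, which was lower with CDs. The part of the division of these reads in that separation was not tested. Hist2h3c2 was highest in number 3 of both groups, with 0.215, 0.329 and 1.63 CPM untreated and 0.714, 0.919 and 1.67 CPM with CDs. Hist1h3g had a log2 fold change of -0.40 ± 0.66 and Hist2h3b, whose windows are all shared with a GENCODE model of a Gm symbol, of -0.25 ± 1.26. Hist1h3i had a fitted difference of 1.42 ± 1.03 on the log2 scale, from 59.4 counts in all, with a listed 0 in untreated 3, and the value was 0.84 without that library and 2.79 without untreated 2. Reads of Hist1h3i can also be given to Hist1h3b, with which it shares 245 of its 362 windows. Hist1h3b went the other way, at 0.859, 0.779 and 0.511 CPM untreated and 0.00401, 0.0196 and 0.402 CPM with CDs. Hist1h3i had 10 counts in 2 libraries only within the CDs group, and Hist1h3b only within the untreated group. Each is thus a member through the group where it was higher, and their opposite directions are no result about the members. Hist2h3c2 is likewise a member only through the CDs group, and Hist2h3b only through the untreated group. The sum of Hist1h3i and Hist1h3b was 1.09, 1.38 and 0.511 CPM untreated against 0.696, 1.04 and 0.925 CPM with CDs, which overlapped. Hist1h3d was not tested, with 0.596 ± 0.245 CPM untreated and 0.566 ± 0.328 CPM with CDs (SD, n = 3 each).

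In the H4 class 1 gene held 88.8% to 92.6% of the reads. Hist1h4i (chr13:22040960-22041362, minus strand) had 18.5, 15.7 and 13.6 CPM in untreated libraries and 13.5, 14.0 and 10.1 CPM in CDs libraries. The groups overlapped at a single library, untreated 3, and within each number the CDs library was the lower, by -0.45, -0.17 and -0.42 on the log2 scale. The log2 fold change was -0.35 ± 0.21 (SE), and -0.35 ± 0.11 with the block (edgeR adjusted p 0.114, and 0.114 to 1.00 over the alternatives). Hist1h4m had 1.06, 1.30 and 0.459 CPM untreated and 0.557, 0.266 and 0.523 CPM with CDs. Its log2 fold change was -1.01 ± 0.54 on 81.2 counts in all. It had 10 counts in 2 libraries only within the untreated group, so it is a member through the group where it was higher. The 2 H4 members that were not tested were Hist1h4d and Hist1h4c. Hist1h4d had 0.383 ± 0.0987 CPM untreated and 0.605 ± 0.123 CPM with CDs (SD, n = 3 each). It went against its class, with 0.471, 0.402 and 0.276 CPM untreated and 0.746, 0.517 and 0.554 CPM with CDs, without overlap. Only its CDs libraries reached 10 counts, so it is a member through that group. Hist1h4c had 0.397, 0.334 and 0.201 CPM in CDs libraries against 0.538, 0.242 and 0.521 CPM in untreated ones. Only untreated libraries reached 10 counts for Hist1h4c, so it is a member through that group. The summed H4 level was 20.5, 17.7 and 14.8 CPM untreated and 15.2, 15.1 and 11.4 CPM with CDs, a log2 ratio of means of -0.35.

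The class sums thus lay on different sides of 0. H1 and H2B were higher with CDs in all 3 numbers, H4 was lower in all 3, and H2A and H3 had numbers on both sides. The summed macrophage, granulocyte, hepatocyte and endothelial markers, given below, were likewise higher with CDs in all 3 numbers, and their part in the H1 and H2B sums was not tested. No p is given for a sum, since its members were chosen with results known, and 3 libraries against 3 cannot give an exact two-sided permutation p under 0.1. The H3 sum was 5.22, 4.36 and 4.91 CPM untreated and 4.77, 4.91 and 5.64 CPM with CDs. The difference of each sum between groups was at most 0.44 on the log2 scale in either direction.

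**Figure D4:**
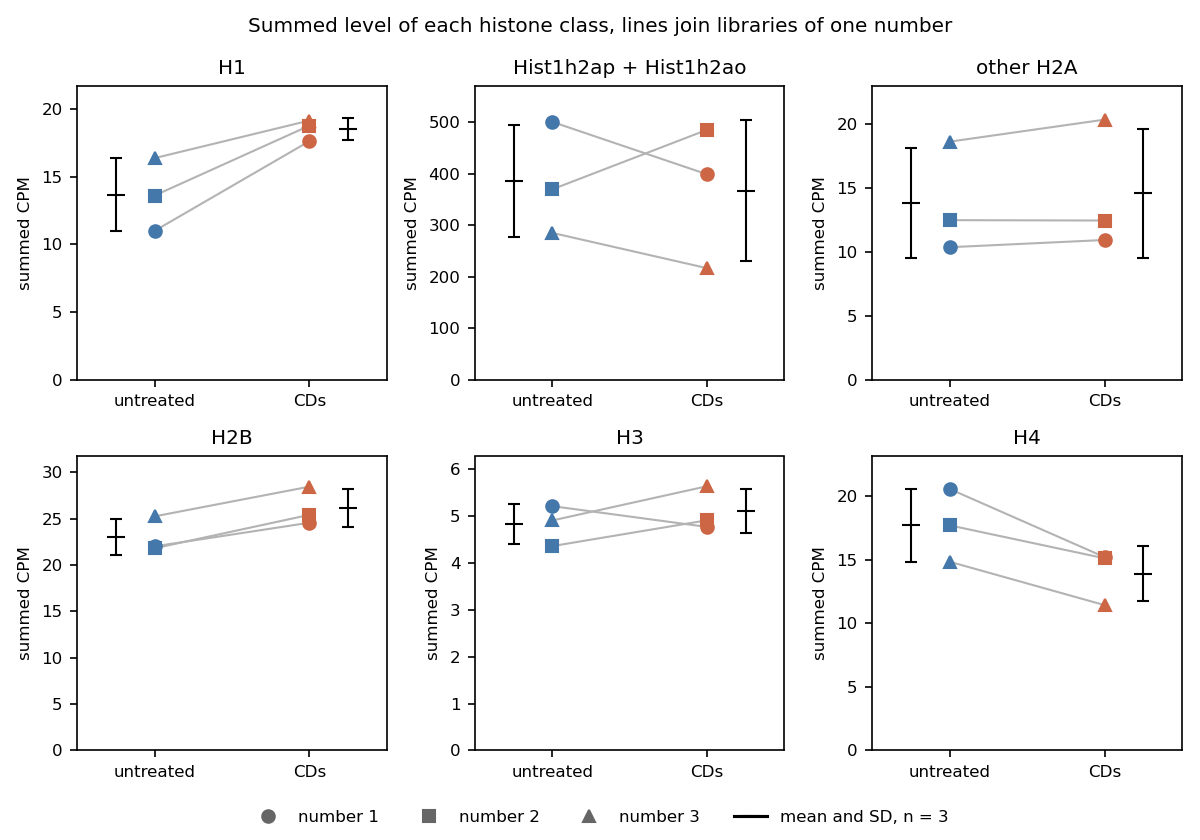
Summed CPM of each class in the 6 libraries, with a grey line joining the untreated and CDs libraries of one number and black bars for the mean and SD (n = 3). The H2A class is split into Hist1h2ap with Hist1h2ao and the other 7 genes, and only the H1 panel separates the groups without overlap between its libraries.

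Replicate numbers moved some members more than the treatment did. From number 1 to number 3, Hist1h2ap differed by -0.83 on the log2 scale in untreated and -0.89 in CDs libraries, and Hist3h2a by 1.05 and 1.48. Without Hist1h2ap and Hist1h2ao the remaining 33 members summed to 69.1, 69.9 and 80.0 CPM untreated and 73.1, 76.6 and 85.0 CPM with CDs, highest in number 3. The first principal component of all genes held 86.6% of the variance and placed both number 3 libraries at one end. Macrophage, granulocyte, hepatocyte and endothelial markers were highest in number 3 too, and these 4 lists were also higher with CDs within each number. The 12 macrophage markers, 11 with counts in every library, summed to 84.0, 199 and 2022 CPM in untreated and 227, 817 and 2849 CPM in CDs libraries. The 9 granulocyte markers summed to 269, 841 and 2065 CPM untreated and 380, 1274 and 2130 CPM with CDs. The 7 hepatocyte markers ranged from 163 to 339 CPM untreated and from 237 to 439 CPM with CDs, and the 6 endothelial markers from 6.61 to 65.0 and from 13.2 to 82.3 CPM, both higher with CDs in all 3 numbers. No marker of these 4 lists was at 0 in all libraries. The 5 mast cell and basophil markers summed to 33.3, 73.2 and 226 CPM untreated and 44.5, 97.6 and 141 CPM with CDs. They were highest in number 3, but lower with CDs there. The 6 megakaryocyte markers were not highest in number 3, with 94.8, 99.0 and 95.0 CPM untreated and 127, 130 and 88.2 CPM with CDs. All 10 erythroblast markers had counts in every library, with sums of 73113, 71869 and 61328 CPM untreated and 70461, 72140 and 56781 CPM with CDs. These sums were lowest in number 3 of both groups, and with CDs they were lower in numbers 1 and 3 and higher in number 2. In bulk RNA, fewer cells of a type and less RNA per cell cannot be told apart, and the part of other cells in the histone values was not tested.

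**Figure D5:**
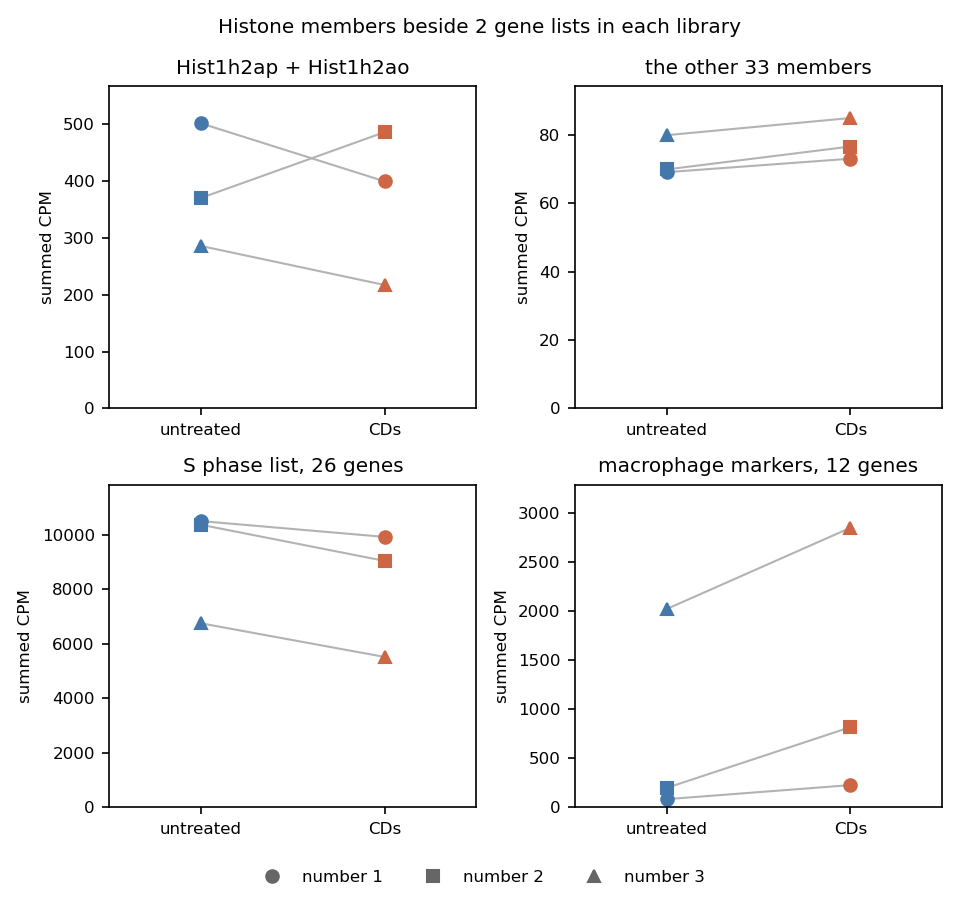
Summed CPM in each library of Hist1h2ap with Hist1h2ao, of the other 33 members, of 26 S phase genes and of 12 macrophage markers, with a grey line joining the libraries of one number. Hist1h2ap with Hist1h2ao and the S phase genes are lowest in number 3, while the other members and the macrophage markers are highest there.

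S phase genes, which are read at the time of histone synthesis, were followed beside the members. Of 26 such genes 0 passed the edgeR test with or without the block, while 25 had a log2 fold change below 0, as 48.1% of all genes did, and 22 were lower with CDs in all 3 numbers, as 26.2% of all genes were. Their median log2 fold change was -0.19 against 0.01 for all genes, and DESeq2 with the block called 5 of them, 4 lower and 1 higher, beside 11.4% of all genes. Cdc6, which loads the replicative helicase, had 217, 227 and 154 CPM in untreated and 204, 180 and 110 CPM in CDs libraries. Cdc45, a helicase subunit, had a log2 fold change of -0.26 ± 0.27 (SE) and Tyms, which makes thymidylate, of -0.20 ± 0.23. Hist1h2ap with Hist1h2ao and the S phase list were both lowest in number 3 of each group. The summed histone message, poly(A), variant histone, chaperone and erythroid lists, described below, were lowest there too. Within number 2 the S phase sum was lower with CDs, at 10361 CPM untreated and 9037 CPM with CDs. There Hist1h2ap with Hist1h2ao was higher with CDs, at 370 and 486 CPM.

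The genes that act on histone messages were fitted in the same test. Slbp, whose protein binds the hairpin, had 366, 376 and 261 CPM in untreated and 315, 325 and 223 CPM in CDs libraries. It was lower with CDs in every number, with a log2 fold change of -0.22 ± 0.23 (SE), and -0.22 ± 0.06 with the block (edgeR adjusted p 0.101, and 0.0604 to 1.00 over the alternatives). Npat, the activator of the histone clusters, had -0.09 ± 0.22. Of 20 genes for the transcription, 3′ processing and decay of histone RNA that were tested, 0 passed with or without the block, and 18 lay below 0, where 48.1% of all genes did, with a median of -0.11 against 0.01 for all genes. Of 21 genes of the general poly(A) machinery 0 passed and 15 lay below 0, beside 48.1% of all genes, with a median of -0.04. Pabpn1, the nuclear poly(A) binding protein, had -0.25 ± 0.20, Cpsf7, a cleavage factor subunit, -0.19 ± 0.10, and Cnot6l, a deadenylase, 0.35 ± 0.27.

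Histones outside the clusters, whose messages end in a poly(A) tail whatever the cell cycle, gave a reference. H3f3a and H3f3b, which encode H3.3, had log2 fold changes of -0.04 ± 0.14 and -0.07 ± 0.21 (SE). H2afz, which encodes H2A.Z, had 619, 593 and 383 CPM in untreated and 568, 535 and 313 CPM in CDs libraries, lowest in number 3 of both. H2afx, which has both a hairpin and a poly(A) form, had -0.02 ± 0.14. Among linker histones of this kind H1f0, the H1 of resting cells, had 67.5, 70.3 and 94.9 CPM untreated and 88.9, 90.5 and 87.2 CPM with CDs, and its fitted log2 difference was 0.20 ± 0.16. H1fx had 0.75 ± 0.39 from a level of 0.465 to 1.54 CPM, and H2afy2, a macroH2A gene, 0.82 ± 0.25, with the CDs libraries all above the untreated ones at 0.492 to 1.01 CPM. Of the 11 variant genes tested 0 passed in edgeR with or without the block. DESeq2 with the block called 1 of the 9 it gave an adjusted p, H2afy, beside 11.4% of all its genes.

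Histone chaperones gave a similar list. Of 21 tested, 0 passed in edgeR with or without the block, 18 lay below 0 (48.1% of all genes) and 12 were lower with CDs in all 3 numbers (26.2% of all genes), with a median of -0.13 against 0.01. Asf1a, which hands H3 and H4 to the assembly factors, had 79.9, 75.5 and 48.6 CPM untreated and 61.1, 63.6 and 38.5 CPM with CDs. DESeq2 with the block called 1 of the 21 chaperones, beside 11.4% of all its genes. That gene was Asf1a, with an adjusted p of 0.0327 (0.0327 to 1.00 over the alternatives), while edgeR with the block gave an adjusted p of 0.0916. Of 11 erythroid genes edgeR called 0 without the block and 1 with it, beside 0% and 0.0407% of all genes. That 1 was Car1, an erythroid carbonic anhydrase. Car1 had 212, 178 and 70.9 CPM untreated and 115, 97.2 and 34.3 CPM with CDs, and the blocked log2 difference was -0.93 ± 0.06. No histone member passed in that fit.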

How the data were processed

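RNA of 6 libraries, 3 untreated and 3 with CDs, was selected with oligo(dT) beads, copied with random hexamers and read over 50 bases from one end, per the labels' protocols. The authors deposited expected counts per gene, 30.1% of them not whole, and a second table whose values are FPKM as judged from the values themselves. Tools listed in the submitters' processing notes, without roles, are RSEM 1.2.12, HISAT2 2.0.4, Bowtie2 2.2.5 and DESeq2 1.4.5, with the build GRCm38.p6. Expected counts of this kind divide reads that match several near-identical genes, which affects single histone genes more than class sums. Totals were 17695997 to 20066581 counts, so 1 CPM rests on about 18 to 20 counts, and intervals of counting error do not cover PCR copies.

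Counts were rounded, filtered with filterByExpr (12283 genes, 99.9% of counts), TMM-scaled and put to the test of edgeR 4.0.16 (robust quasi-likelihood fit, R 4.3.3), with Benjamini-Hochberg adjustment over all genes tested. DESeq2 1.42.0 and limma 3.58.1 (voom) served as alternatives, with other scalings, no filter, left-out libraries and the replicate number as a block. Log2 ratios within a number added 0.5 counts. The deposited FPKM served for levels between genes. Scripts were tested on simulated data. Libraries of a group differed by at least 11.1 in chi-square per degree of freedom, so none repeats another. The numbers were taken to pair the samples because, across genes, same-numbered libraries correlated in their deviations from the group means. The correlations were 0.885, 0.296 and 0.923 in numbers 1, 2 and 3, all above 0.1. Untreated 2 correlated more with CDs 1 (0.612) than with CDs 2, and untreated 1 with CDs 2 gave 0.101. The other differently numbered libraries correlated negatively. The labels do not state a pairing, and that of numbers 1 and 2 is uncertain.

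The members, the companion lists and the marker lists were chosen with earlier results of these data known. Members named are the 5 with the highest mean FPKM in each class and the 4 with the smallest unadjusted p in each direction; companions named are up to 3 per list by p and 8 fixed genes. Hist1h2ac, Hist1h2ae, Hist1h2be, Hist1h2bg, Hist1h2bk, Hist1h2br, Hist1h3b, Hist2h2aa2, H2afy and Trim17 were named after their values were seen. The single S phase genes that DESeq2 called with the block are not reported here. Genes matched RefSeq and GENCODE M21 by Entrez number (65 of 65), and 60 had a RefSeq promoter window.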

Additional observations from a re-analysis of the deposited data

How the results depend on the processing

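No histone member was called in any of the 15 alternative fits, and the median log2 fold change of members stayed between 0.02 and 0.18. Over all genes, 0 were called in the main fit, 5 with the replicate block, 6 by limma-voom with the block, 14 by DESeq2 and 1210 by DESeq2 with the block. Apart from Car1 and Asf1a, the pairing changed no call among the 45 genes named by rule that had a fit. H2afy, named after its values were seen, is not among them and was called by DESeq2 with the block. Of 659 values of single genes under the alternatives, 36 changed sign without a call and 4 gained one (Car1 in 3 fits, Asf1a in 1). Of 22 named members with a fit, 13 kept 1 sign throughout.

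The log2 ratio of class sums depended on single genes and libraries. The H1 ratio of 0.44 was 0.024 without Hist1h1c. The H2B ratio of 0.18 was 0.29 from the deposited FPKM and 0.32 without Hist2h2be, and 0.12 to 0.25 with 1 library left out. The H4 ratio of -0.35 was -0.46 to -0.22 with 1 library left out. The H2A ratio of -0.06 ranged from -0.32 without CDs 2 to 0.19 without CDs 3, and the H1 ratio from 0.30 without untreated 1 to 0.59 without untreated 3. The cause of these shifts was not tested. With 10 counts required in all 6 libraries 13 members remained, and with 50 counts in 2 libraries 8, with medians of 0.08 and 0.04. Depth limits the scarce members: most had under 2 FPKM.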
